A study of Homo sapiens and Mus musculus with 12 samples.

Results

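The genes described here are interleukin-2 (IL-2) and the chains of the IL-2 and IL-15 receptors, read by their symbols from a mouse and a human table of RNA-seq counts. The mouse table holds 4 of them (Il2ra, Il2rb, Il2rg and Il15ra) among 22021 listed genes and the human one holds 5 (IL2, IL2RA, IL2RB, IL2RG and IL15RA) among 18304, so that 9 of 40325 rows were members. The mouse comparison set NK cells sorted as CD3- NK1.1+ from the spleens of KO mice (Ehmt2 flox/flox with Ncr1-iCre, 3 samples) against those of WT mice (Ehmt2 flox/flox without Cre, 3 samples), all C57BL/6J. Cre is driven by Ncr1, the gene of the NK receptor NKp46, and since the WT mice carry no Cre, an effect of Cre itself and of the loss of Ehmt2 cannot be told apart. The genotype field of the KO samples reads Ezh2-KO, whereas their titles name EHMT2. The human comparison set 3 libraries of NK92MI cells treated with BIX-01294, an inhibitor of the histone methyltransferase EHMT2, against 3 treated with its solvent DMSO. NK92MI is a derivative of the human NK cell line NK-92 that carries an IL-2 transgene and grows without added IL-2. It is 1 line, so the replicates of the human comparison are libraries of that line. The sources do not state that the replicates of a group came from separate cultures or animals, and the p-values measure the spread between these libraries.

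IL-2 and IL-15 signal through receptors that share a beta chain (IL2RB, also CD122) and the common gamma chain (IL2RG), which carry the signal through the kinases JAK1 and JAK3 to STAT5. The alpha chains, IL2RA (CD25) and IL15RA, each bind their own cytokine. IL2RA raises the affinity of a cell for IL-2, while IL15RA presents IL-15, the cytokine on which NK cells depend for survival. The common gamma chain also serves the receptors of IL-4, IL-7, IL-9 and IL-21.

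Levels are given as CPM, read counts scaled to library size after TMM normalization, and changes as log2 fold changes from edgeR's quasi-likelihood test. A gene passed at an adjusted p (Benjamini-Hochberg over all genes tested) under 0.05. All 9 members were tested. Library totals ranged from 25891680 (WT replicate 2) to 37438868 in mouse and from 16579469 to 17165446 in human. Ehmt2 was at 150 ± 18.1 CPM in KO libraries against 282 ± 5.94 CPM in WT libraries (SD, n = 3; log2 fold change −0.91, adjusted p = 0.0162 by edgeR), and counts per gene do not show which part of it the remaining reads cover. Without KO replicate 2, KO replicate 3 or WT replicate 3 its adjusted p was 0.0986, 0.121 and 0.0587. In NK92MI cells, EHMT2 mRNA was at 38.5 ± 2.39 CPM with BIX-01294 and 57.7 ± 3.66 CPM with DMSO (SD, n = 3; log2 fold change −0.58, adjusted p = 0.000101 by edgeR).

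In splenic NK cells, Il2rg was the member that passed, and it was higher in KO at the TMM scale. The other 3 chains had positive log2 fold changes that did not pass. Scaling libraries to a list of NK cell markers, which was itself higher in the KO libraries, put all 4 chains below 0. It also moved the median of all genes tested to −0.81. Scaling shifts all genes of a library alike. Values relative to that median, between 0.36 and 0.80, therefore largely repeat the TMM result and are no separate test. Thus 1 of 4 members passed as higher and 0 passed as lower, where 4.44% of the 13189 genes tested passed as higher and 7.43% as lower. Libraries of the 2 groups did not overlap for 2 members, both higher in KO, against 19.1% of all genes tested for higher and 19.3% for lower.

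Il2rg, the common gamma chain, spans, on the minus strand of chromosome X, 101264378 to 101268255 (GRCm38). It was counted at 445, 487 and 423 CPM in the KO libraries and at 307, 379 and 293 CPM in the WT libraries. Every KO library was above every WT library, and the highest WT library was replicate 2. The log2 fold change was 0.47 (standard error 0.12), which is 1.39-fold, with an adjusted p of 0.0472 by edgeR. This call rested on each library but 1, since the adjusted p was 0.0587 without KO replicate 1, 0.163 without KO replicate 2, 0.143 without KO replicate 3, 0.131 without WT replicate 1 and 0.160 without WT replicate 3. It was 0.00731 without WT replicate 2.

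Il2rb, the signalling beta chain, lies on the minus strand of chromosome 15 from 78479256 to 78495271. It had the most counts of the 4 chains, at 2045, 3033 and 2955 CPM in KO libraries against 1247, 2327 and 1246 CPM in WT libraries. WT replicate 2 was above KO replicate 1, so the groups overlapped. The log2 fold change of 0.74 had a standard error of 0.28 and an adjusted p of 0.104 by edgeR. Without WT replicate 2 the value was 1.11 with an adjusted p of 0.00764, and by DESeq2 with all libraries the adjusted p was 0.0174. The paper reported higher Il2rb mRNA in KO NK cells by RT-qPCR. By CUT&Tag it also reported less signal of H3K9me2, a histone mark that EHMT2 deposits, at this gene.

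The alpha chains were counted far less often. Il15ra lies on the plus strand of chromosome 2 from 11705290 to 11734317, and was counted at 17.7, 20.3 and 18.9 CPM in KO libraries against 14.6, 16.8 and 13.2 CPM in WT libraries. Its groups did not overlap, but the log2 fold change of 0.35 (standard error 0.12) did not pass, with an adjusted p of 0.0902 by edgeR. Without WT replicate 2 it passed, at 0.45 and an adjusted p of 0.0345. Il2ra lies 12.1 kb away on the same strand, from 11642807 to 11693193. It was counted at 8.73, 11.7 and 9.18 CPM in KO, from 321 to 433 reads, and at 9.06, 5.04 and 5.02 CPM in WT libraries, from 130 to 336 reads. WT replicate 1 lay among the KO libraries and the other WT libraries lay below them. Its log2 fold change was 0.63 (standard error 0.26), with an adjusted p of 0.130 by edgeR. Without WT replicate 1 it was 0.97, with an adjusted p of 0.0705. Mouse Il2 itself was close to the limit of detection, with 16 to 26 reads in the KO libraries and 10 to 28 in the WT libraries.

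**Figure D1:**
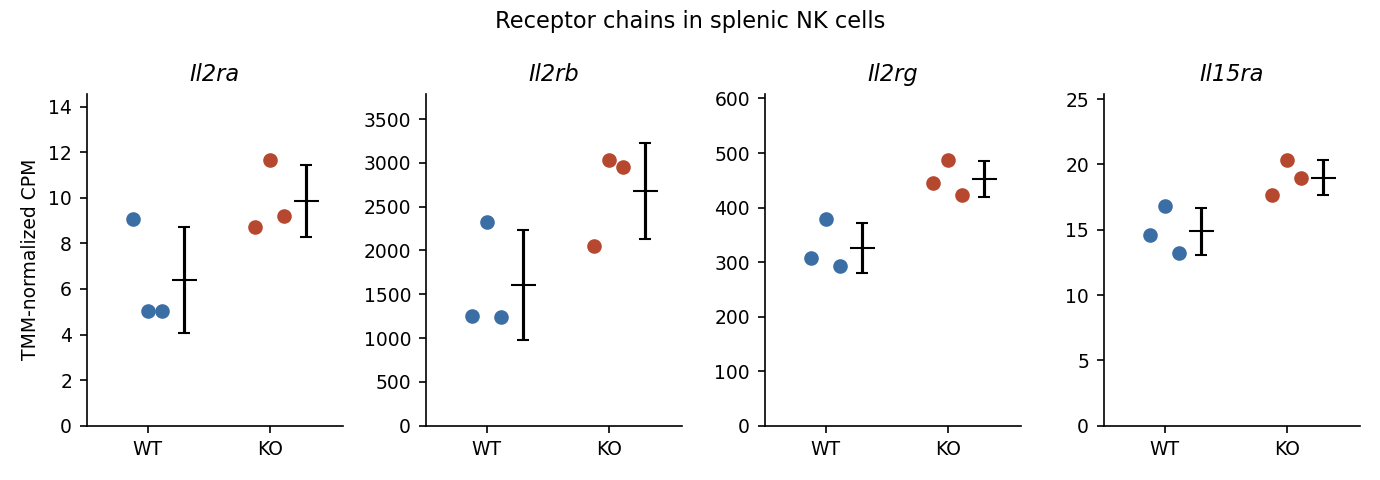
TMM-normalized CPM of Il2ra, Il2rb, Il2rg and Il15ra in splenic NK cells, with 1 point for each library (WT blue, KO red) and the mean ± SD of 3 libraries in black on axes that start at 0. The groups do not overlap for Il2rg and Il15ra, and WT replicate 2 is the highest WT point for Il2rb, Il2rg and Il15ra. Scaled to the NK marker list, which moves the median of all genes tested to −0.81, the 4 differences fall below 0.

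NK cell markers differed between the groups too. The summed level of 11 NK markers was 8706, 9508 and 9440 CPM in KO against 4367, 7207 and 4637 CPM in WT libraries, and WT replicate 2 was nearest to the KO libraries. Of these markers 7 passed as higher and 0 as lower, where 4.44% of all genes tested passed as higher and 7.43% as lower. Ncr1, the gene that drives Cre, was at 538 ± 71.9 CPM in KO libraries against 403 ± 121 CPM in WT libraries (SD, n = 3). Markers of cells that the sort should remove had lower sums in KO, with overlap for T cells and for neutrophils. The summed level of 8 B cell markers lay between 35.8 and 410 CPM in KO and between 445 and 1343 CPM in WT libraries, and 0 of 8 passed. For 11 markers of macrophages, monocytes and dendritic cells the ranges were 2525 to 3237 CPM and 3526 to 6605 CPM, and 5 passed as lower. Of these 11, 10 had negative log2 fold changes and 1, Itgax, a positive one (0.41, not passing). Itgax was at 1038 ± 182 CPM in KO libraries and 784 ± 218 CPM in WT libraries (SD, n = 3). The 7 neutrophil markers summed to between 1.78 and 70.4 CPM in KO and between 62.2 and 644 CPM in WT libraries, and 2 of 6 tested passed as lower. The 9 T cell markers summed to between 97.6 and 222 CPM in KO and between 157 and 263 CPM in WT libraries, with Cd3g passing as higher, and WT replicate 1, the WT library with the most Il2ra, had the highest sum. No defining marker of these other cells was at 0 in a group, but some neutrophil markers were near it. In KO libraries Elane and Ly6g had a mean of 0.0906 CPM and Camp of 0.0730 CPM. In such bulk libraries, fewer cells of a type and less RNA per cell cannot be told apart.

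Set against the NK markers of the same library, no receptor chain had a higher mean in KO NK cells. Per 1000 counts of the 11 NK markers, Il2rb had 235, 319 and 313 counts in KO and 286, 323 and 269 in WT libraries, and the groups overlapped. Il2rg had 51.1, 51.3 and 44.8 counts in KO and 70.4, 52.5 and 63.1 in WT libraries, so that every KO library was below every WT library. The same held for Il15ra, with 2.03, 2.14 and 2.01 against 3.35, 2.33 and 2.85 counts. Il2ra had 1.003, 1.23 and 0.973 counts in KO and 2.08, 0.700 and 1.08 in WT libraries, which overlap. With libraries scaled to these markers the log2 fold changes were −0.01 for Il2rb, −0.32 for Il2rg, −0.45 for Il15ra and −0.26 for Il2ra, and none passed (adjusted p between 0.142 and 0.979 by edgeR). That scaling moved the median of all genes tested to −0.81. Relative to this median the 4 chains stood at 0.80, 0.49, 0.36 and 0.55 in the same order. Since scaling shifts all genes of a library alike, these relative values largely repeat the TMM result and are no separate test. The marker list holds Prf1 and Tbx21, whose mRNA the paper reported as higher in KO NK cells by RT-qPCR, as it did that of Il2rb. More marker RNA per cell would lower each chain in this ratio. The share of NK cells in each library was not measured, and the part of either in the differences was not tested.

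**Figure D2:**
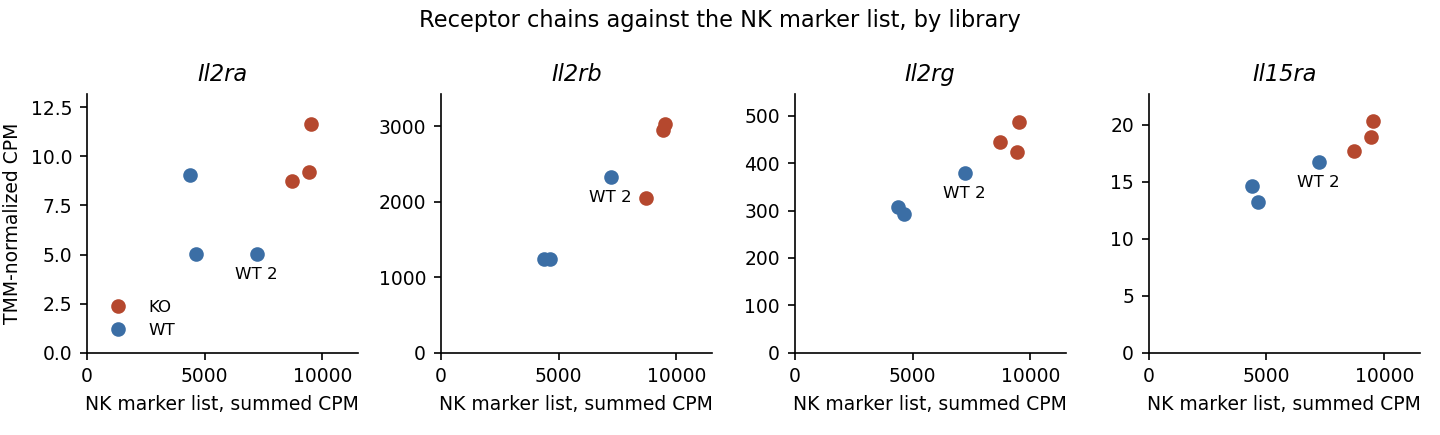
TMM-normalized CPM of each receptor chain (vertical axes) against the summed CPM of 11 NK cell markers (horizontal axes), with 1 point for each mouse library, WT blue and KO red. WT replicate 2, labelled, lies between the other WT libraries and the KO libraries in NK marker level, at 7207 CPM, and is the highest WT library for Il2rb, Il2rg and Il15ra.

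In NK92MI cells, 4 of the 5 human members passed. IL2RA, IL2RG and IL15RA were higher with BIX-01294, by 1.85-, 1.57- and 1.22-fold, and IL2RB was lower, at 0.894 times its DMSO level. IL2 did not pass. Of all 12727 genes tested, 18.4% passed as higher and 18.4% as lower. The libraries of the 2 groups did not overlap for 3 members that were higher and 1 that was lower, against 24.1% and 23.9% of all genes tested. IL2RA and IL2RG also met the stricter thresholds of an adjusted p under 0.01 and an absolute log2 fold change over 0.5.

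The stretches before the RefSeq starts of IL2RA and IL2RG are shown because these genes had the largest increases among the human members. They are from RefSeq (GRCh38.p14) and run 5′ to 3′ on the minus strand from 250 to 31 bases before that start. The IL2RG stretch lies inside the gene's annotated span, since a longer transcript begins further upstream. The stretch of IL2RA is at chr10:6062398-6062617 and that of IL2RG at chrX:71111608-71111827. Capitals mark matches to 5 motifs searched on both strands, namely TTCNNNGAA (a STAT site), TGANTCA (AP-1), GGAAGT (ETS), the kappa B motif and the CArG box.
IL2RA: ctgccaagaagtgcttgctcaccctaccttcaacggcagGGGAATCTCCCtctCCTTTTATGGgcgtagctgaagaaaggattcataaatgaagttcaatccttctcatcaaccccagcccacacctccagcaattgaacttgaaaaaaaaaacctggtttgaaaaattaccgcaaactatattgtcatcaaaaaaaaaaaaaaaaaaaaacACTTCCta
IL2RG: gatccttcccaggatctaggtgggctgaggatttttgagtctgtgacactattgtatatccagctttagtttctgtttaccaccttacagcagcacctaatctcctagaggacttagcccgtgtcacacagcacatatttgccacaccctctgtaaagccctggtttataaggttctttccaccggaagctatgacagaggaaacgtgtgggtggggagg
The IL2RA stretch holds a kappa B match on each strand, from 211 to 201 bases before the start and overlapping each other, a CArG box from 197 to 188 and an ETS match on the opposite strand from 38 to 33. It also holds a run of 21 A. Of 35116 stretches of this length before annotated starts, 8.85% hold a kappa B match, 0.948% a CArG box, 16.1% an ETS match, 5.98% a STAT match and 5.98% an AP-1 match. The IL2RG stretch holds none of the 5 as spelled here in its 220 bases. It does hold GGAAGC, which differs from the ETS letters searched only in the last base. Other spellings of an ETS site were not searched. Matched to the same table, IL2 had 1 ETS match, and the 4 annotated starts of IL15RA had an AP-1 match upstream of 3 (the same site for 2 overlapping stretches) and a STAT match upstream of 1, with overlapping kappa B matches upstream of 1 of the 3. IL2RB and the mouse chains were not analysed for promoters here. A match gives letters in the genome and says nothing of binding.

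IL2RA, the alpha chain that makes the high-affinity IL-2 receptor, lies on the minus strand of chromosome 10 from 6010689 to 6062370 (GRCh38). It was counted at 281, 275 and 283 CPM with BIX-01294 and at 144, 149 and 160 CPM with DMSO. The treated libraries lay close together, far above each DMSO library. BIX-01294 raised it by 0.89 on the log2 scale (standard error 0.06), with an adjusted p of 3.11e-07 by edgeR. It lay between 0.85 and 0.93 when each library was left out in turn, and passed in all 6 of these fits.

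IL2RG lies on the minus strand of chromosome X from 71107404 to 71112108. It was counted at 41.8, 30.5 and 46.9 CPM with BIX-01294 and at 22.9, 24.6 and 28.4 CPM with DMSO, from 394 to 795 reads. BIX replicate 2 was close to the highest DMSO library, and the other treated libraries were well above it. The log2 fold change was 0.65 (standard error 0.14), with an adjusted p of 0.00217 by edgeR, and it passed with each library left out in turn, between 0.52 and 0.82.

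IL15RA lies 32.5 kb from IL2RA on the same strand, from 5943639 to 5978187 on chromosome 10. It was counted at 25.6, 21.9 and 25.7 CPM with BIX-01294 and at 20.02, 20.4 and 19.7 CPM with DMSO. The lowest treated library was again BIX replicate 2. The log2 fold change was 0.28 (standard error 0.10), with an adjusted p of 0.0360 by edgeR. It no longer passed without BIX replicate 1 (adjusted p = 0.125), BIX replicate 3 (0.0812), CON-1 (0.0985), CON-2 (0.0744) or CON-3 (0.107), the last 3 being the DMSO libraries as the table names them, nor by DESeq2 (0.0519).

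IL2RB lies on the minus strand of chromosome 22 from 37118666 to 37175118. It was counted at 724, 723 and 706 CPM with BIX-01294 and at 801, 842 and 765 CPM with DMSO. Each treated library was below each DMSO library. The change was −0.16 on the log2 scale (standard error 0.06), with an adjusted p of 0.0457 by edgeR. It was no longer past the threshold without BIX replicate 1 (adjusted p = 0.139), BIX replicate 3 (0.0776), CON-1 (0.129), CON-2 (0.156) or CON-3 (0.0558), with DESeq2's size factors in edgeR (0.0540) or without a filter on low counts (0.0633).

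IL2, counted on the minus strand of chromosome 4, 122451470 to 122456725, was at 38.7, 31.9 and 38.5 CPM with BIX-01294 and at 33.1, 32.8 and 39.8 CPM with DMSO. These are 542 to 672 reads in each library. The lowest and the highest library belonged to different groups, and each group spanned the other's mean. Its log2 fold change was 0.05 (standard error 0.10), with an adjusted p of 0.766 by edgeR, and lay between −0.00 and 0.14 with each library left out. Counts per gene do not tell transcripts of the transgene from those of the gene on chromosome 4.

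**Figure D3:**
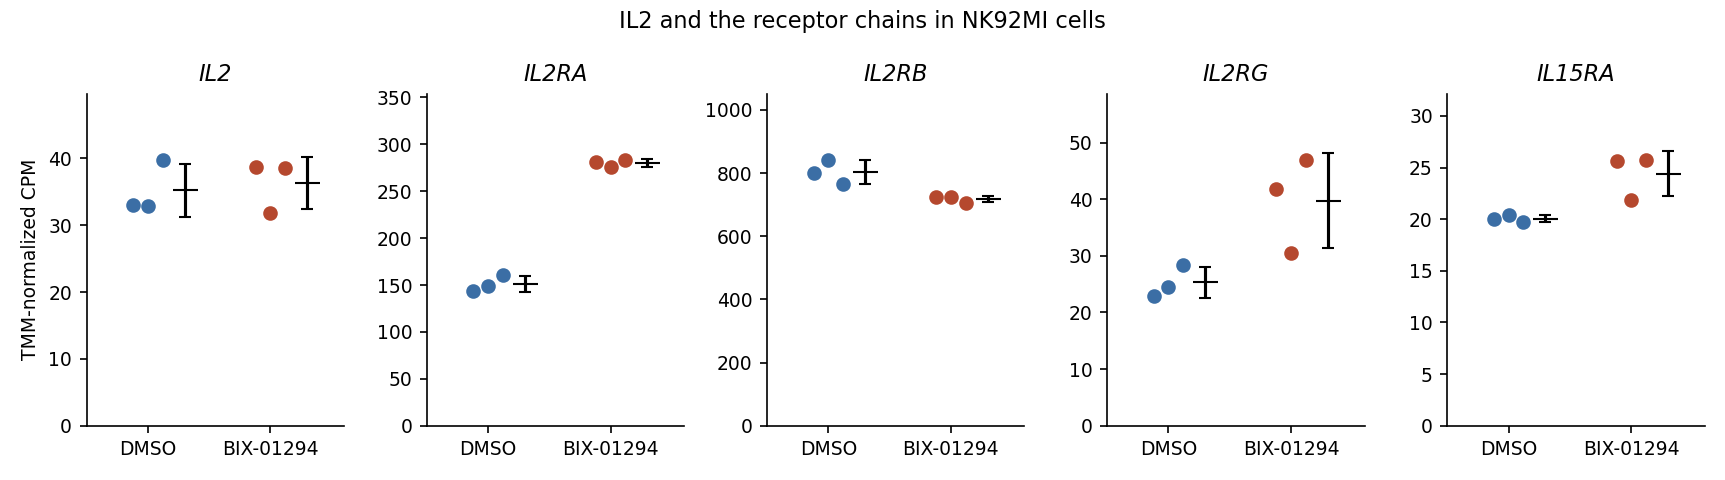
TMM-normalized CPM of IL2, IL2RA, IL2RB, IL2RG and IL15RA in NK92MI cells, with 1 point for each library (DMSO blue, BIX-01294 red) and the mean ± SD of 3 libraries in black on axes that start at 0. IL2RA shows the widest gap between the groups, IL2RB is slightly lower with BIX-01294, and the libraries overlap for IL2.

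Ratios of counts within a library do not depend on how libraries are scaled. The log2 ratio of IL2RA to IL2RB was −1.36, −1.39 and −1.32 with BIX-01294 and −2.48, −2.50 and −2.25 with DMSO, a difference of 1.05. The ratio of IL2RB to IL2RG fell by 0.79, from 4.99 ± 0.21 to 4.198 ± 0.34 (SD, n = 3), without overlap of the libraries. That of IL15RA to IL2RB differed by 0.44, also without overlap, and that of IL2 to IL2RB by 0.21 with overlap. In mouse, Il2rb to Il2rg differed by 0.30, Il2ra to Il2rb by −0.11 and Il15ra to Il2rb by −0.42 between KO and WT NK cells, and the libraries overlapped for each. The 3 human ratios without overlap had p = 0.1 by a two-sided exact permutation test, the smallest that 3 against 3 allow, and p = 0.233 after adjustment over all 7 ratios, so that none could pass. Without KO replicate 3 or WT replicate 1 the mouse difference of Il2ra to Il2rb was 0.02 and 0.33.

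**Figure D4:**
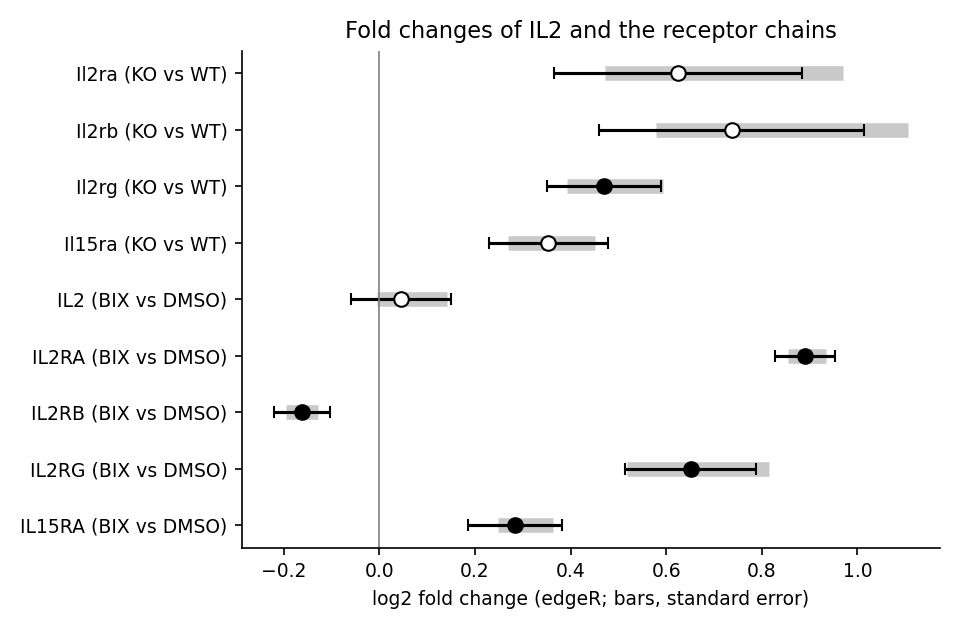
Log2 fold changes of the 9 members from edgeR, with standard errors as thin bars, filled points for genes that passed and open points for those that did not. Grey bands span the values when each library is left out in turn. The bands of IL2RA and IL2RG stay above 0.5, and all bands but that of IL2 stay on 1 side of 0. However, scaling to the NK marker list, which moves the median of all genes tested to −0.81, puts the mouse values below 0.

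Levels between genes are compared as CPM per kilobase of annotated exon. In WT NK cells the order was Il2rb at 375 ± 146, Il2rg at 137 ± 19.3, Il15ra at 3.35 ± 0.405 and Il2ra at 1.12 ± 0.408 CPM per kb (SD, n = 3), and no neighbours in this order overlapped between libraries. Il2rb had rank 114 and Il2rg rank 318 of 21355 genes with a length, whereas Il15ra and Il2ra had ranks 8022 and 10197. In KO NK cells the order was the same, with 625 ± 128, 189 ± 13.8, 4.27 ± 0.299 and 1.73 ± 0.277 CPM per kb. In NK92MI cells treated with DMSO, IL2RB was at 110 ± 5.26, IL2RA at 38.1 ± 2.16, IL2 at 31.5 ± 3.53, IL2RG at 9.25 ± 1.03 and IL15RA at 5.52 ± 0.0965 CPM per kb. By exon length IL2RA and IL2 were close, since the lowest IL2RA library was at 36.3 and the highest IL2 library at 35.5 CPM per kb. With BIX-01294 the order held, but IL2RA stood at 70.7 ± 1.05 and IL2RB at 98.6 ± 1.43 CPM per kb. Thus Il2ra came last in mouse NK cells, whereas IL2RA came next after IL2RB in the line. Division by coding length in place of exon length kept both orders in the controls. It set IL2RA further from IL2, at 185 and 76.7 CPM per kb with DMSO. The length used for IL2 was that of the gene on chromosome 4.

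The level of IL2RG against the other chains is uncertain. In the reference annotation, 51.3% of its exonic and 90.0% of its coding bases lie within a second gene on the same strand, ENSG00000285171, and for mouse Il2rg 30.5% and 65.8% lie within Gm20489, which is at 0 in all mouse libraries. Reads in such shared parts can be left out of the count of both genes, and the annotation and counting mode behind these tables are not given in the sources used here.

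Among other ligands of the common gamma chain, none passed in either species. In mouse NK cells Il15 was at 12.3 ± 1.03 CPM in KO against 11.6 ± 1.49 CPM in WT, Il7 at 1.53 ± 0.222 and 0.969 ± 0.110, and Il4 at 1.18 ± 0.746 and 0.970 ± 0.300 CPM (SD, n = 3). Il21 and Il9 were at or near 0 and were not tested. In NK92MI cells IL15 was at 12.7 ± 0.0904 CPM with BIX-01294 and 11.6 ± 0.438 CPM with DMSO, IL4 was near 0, and IL7, IL9 and IL21 were not analysed here.

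Other receptors that pair with the common gamma chain rose in the line for 2 of 3 tested, and the median log2 fold change was 0.35. Of all human genes tested, 18.4% passed as higher. IL4R, the IL-4 receptor alpha chain, was at 116 ± 6.92 CPM with BIX-01294 and 90.8 ± 5.96 CPM with DMSO (SD, n = 3; log2 fold change 0.35, adjusted p = 0.00193 by edgeR). IL9R was at 41.3 ± 2.86 and 31.5 ± 5.21 CPM (log2 fold change 0.39, adjusted p = 0.0128), but its counts are uncertain because near-identical copies of this gene exist. IL21R was at 13.9 ± 2.51 and 11.98 ± 1.57 CPM and did not pass, and IL7R was below the filter, at 0.857 and 0.195 CPM. In mouse NK cells 0 of 4 passed, and the median was −0.39. Il7r was at 96.3 ± 11.3 CPM in KO against 82.9 ± 17.8 CPM in WT, Il4ra at 144 ± 15.3 and 183 ± 36.7, Il21r at 76.8 ± 15.5 and 103 ± 23.7, and Il9r at 3.14 ± 2.21 and 8.34 ± 3.54 CPM (SD, n = 3). Without WT replicate 2, 3 of the 4 passed as lower, as did 2097 of the 13411 genes then tested. Without KO replicate 2 or KO replicate 3, 0 of all genes tested passed.

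Of 25 genes that carry the signal from the receptor, 2 passed as higher and 1 as lower in KO NK cells at the TMM scale. Of all genes tested, 4.44% passed as higher and 7.43% as lower. The median log2 fold change was 0.06 beside 0.01 over all genes tested. Jak3, the kinase bound to the common gamma chain, was at 344 ± 55.8 CPM in KO libraries against 209 ± 7.50 CPM in WT libraries (log2 fold change 0.72, adjusted p = 0.0279 by edgeR), and Lck, a kinase of the Src family, at 666 ± 93.9 and 403 ± 103 CPM (0.73, adjusted p = 0.0484). Gab2, an adaptor, was lower, at 50.3 ± 6.02 and 67.4 ± 1.47 CPM (−0.42, adjusted p = 0.0440). Jak1, Stat5a and Stat5b did not pass, with log2 fold changes of 0.46, 0.01 and −0.08. In NK92MI cells 6 passed as higher and 9 as lower, with a median of −0.11 beside −0.01 over all genes tested. Of all human genes tested, 18.4% passed as higher and 18.4% as lower. STAT5B fell by 0.57 on the log2 scale, from 190 ± 4.02 to 129 ± 3.17 CPM (SD, n = 3; adjusted p = 9.62e-06), while STAT5A was at 103 ± 8.39 and 96.1 ± 4.19 CPM and did not pass. JAK1, the kinase bound to the beta chain, had a log2 fold change of −0.27, LCK of −0.32, the phosphatase PTPN11 of −0.35 and the growth kinase MTOR of −0.32, all past the threshold. STAT3 (0.37), the Ras activator SOS1 (0.39), HRAS (0.45), the adaptor GRB2 (0.17) and GAB2 (1.11, from a level of 0.918 CPM) passed as higher. JAK3 was at 81.3 ± 2.18 CPM with BIX-01294 and 90.5 ± 1.44 CPM with DMSO and did not pass (adjusted p = 0.0691 by edgeR).

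Of 12 genes that dampen the signal, 3 passed as higher and 0 as lower in KO NK cells at the TMM scale. The median log2 fold change was 0.16, and 4.44% of all genes tested passed as higher and 7.43% as lower. Cish, an inhibitor induced by STAT5 and a known brake on NK cells, was at 28.6 ± 3.19 CPM in KO against 13.8 ± 1.34 CPM in WT (log2 fold change 1.05, adjusted p = 0.0181 by edgeR). Socs1, which inhibits JAK kinases, was at 50.9 ± 9.01 and 26.3 ± 3.02 CPM (0.95, adjusted p = 0.0269), and Cblb, a ubiquitin ligase, at 181 ± 27.5 and 124 ± 14.4 CPM (0.55, adjusted p = 0.0454). In the line, 1 of 11 tested passed as higher and 2 as lower, with a median of −0.09. Of all human genes tested, 18.4% passed as higher and 18.4% as lower. DUSP5, a phosphatase of ERK kinases, rose from 217 ± 3.03 to 431 ± 27.2 CPM (0.99, adjusted p = 1.37e-07), while CISH was at 254 ± 18.0 against 303 ± 0.716 CPM (−0.25, adjusted p = 0.00791) and DUSP6 at 46.3 ± 2.77 against 55.0 ± 0.564 CPM (−0.25, adjusted p = 0.0182). Thus CISH was lower with BIX-01294 and Cish was higher in KO NK cells at the TMM scale. These are different agents in different cells, and the difference between them was not tested.

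Of the 5 pathway lists, genes known to respond to IL-2 and STAT5 had the highest share of calls in NK92MI cells. There 11 of 14 tested passed as higher and 2 as lower, and the median log2 fold change was 0.56. Of all genes tested, 18.4% passed as higher and 18.4% as lower. The lists were chosen with earlier results of these data known, so this ranking is a description only. MCL1, a survival factor, rose from 532 ± 18.2 to 997 ± 11.3 CPM (0.91, adjusted p = 1.11e-07 by edgeR). The kinase PIM2 (0.85), the transferrin receptor TFRC (0.66), the cyclin CCND2 (0.58) and granzyme B, GZMB (0.89), rose as well. CCND3 and the cytokine OSM were lower, at −0.24 and −0.34. In KO NK cells 3 of 16 passed as higher and 1 as lower at the TMM scale, with a median of 0.36. Of all mouse genes tested, 4.44% passed as higher and 7.43% as lower. Ccnd2 (0.55), Ccnd3 (0.47) and Tnfrsf18, a receptor of the TNF family (0.76), were higher, and Tfrc (−0.79) was lower. At the TMM scale, Ccnd2 and CCND2 were thus higher in both comparisons, while Tfrc and TFRC differed in sign, as did Ccnd3 and CCND3. Scaled to the NK marker list, 34 mouse genes passed as higher and 8863 as lower. Mouse directions can thus depend on the scale. Without WT replicate 2, 8 mouse genes of the response list passed as higher and 2 as lower. So did 5 and 2 of the brakes, and 4 and 2 of the genes that carry the signal. Of all 13411 genes then tested, 1433 passed as higher and 2097 as lower, whereas 0 passed without KO replicate 2 or KO replicate 3. In the line, 11 NK markers summed to between 5790 and 7222 CPM with BIX-01294 and between 4506 and 4807 CPM with DMSO, with GZMA, the granzyme A gene, at 3249 ± 401 and 1724 ± 34.95 CPM as the largest of them. Of these markers 5 passed as higher and 3 as lower, NCAM1 (CD56) was at 348 ± 25.5 CPM with BIX-01294 and 343 ± 3.28 with DMSO (SD, n = 3), and CD4, MS4A1 and CD14 were near 0. CD3E, which NK cells can express inside the cell, was at 552 ± 37.7 and 493 ± 10.8 CPM, and PAX5, a B cell factor, at 23.5 ± 1.20 and 13.0 ± 0.782 CPM. Other markers passed in the line too, with CD79A at 1.83 and 0.898 CPM, VCAM1 at 5.05 and 1.62 CPM and CSF1R at 4.25 and 2.54 CPM as higher, and ITGAX at 61.7 and 79.2 CPM as lower. The part of these differences in the results was not tested. PRF1 and Prf1 are on both the NK marker and the response list.

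**Figure D5:**
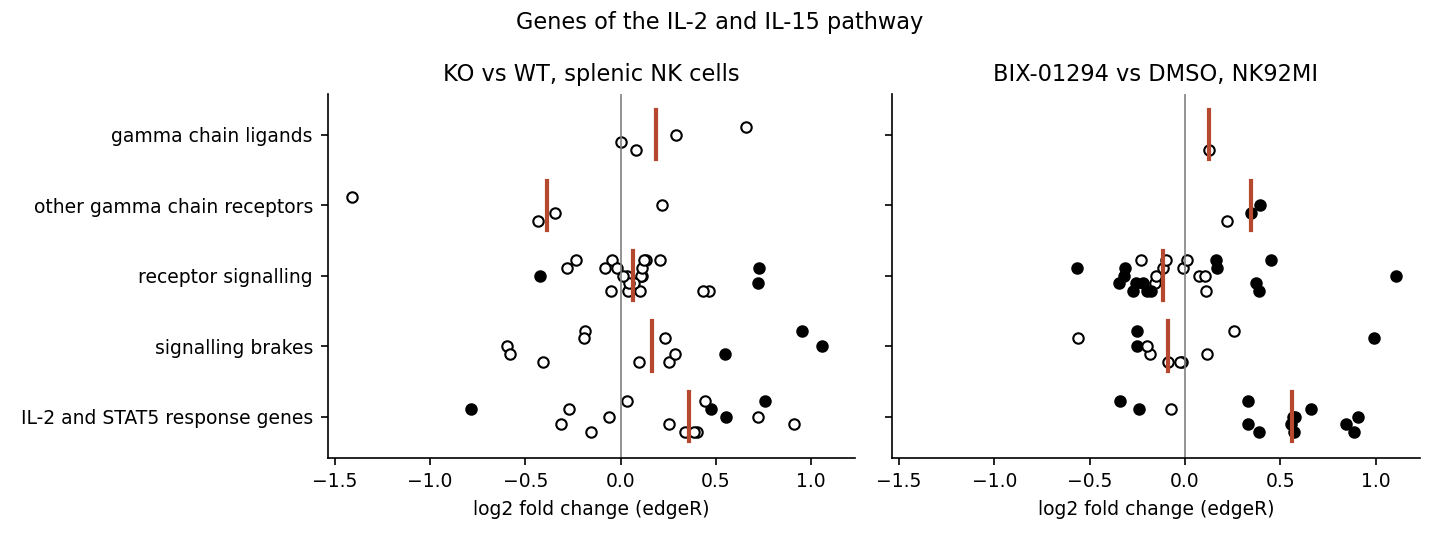
Log2 fold changes of the tested genes of 5 lists around the IL-2 and IL-15 receptors, 1 point for each gene, filled where it passed, with a red bar at the median of a list. Vertical offsets only separate points. In NK92MI cells (right) 11 of 14 IL-2 and STAT5 response genes passed as higher, and in mouse NK cells (left) 3 of 16 did, at the TMM scale. Of all genes tested, 18.4% and 4.44% passed as higher.

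Genes next to the members gave a mixed picture. PFKFB3, 82.6 kb beyond IL2RA and a regulator of glycolysis, was higher with BIX-01294 at 71.6 against 40.2 CPM (log2 fold change 0.83, adjusted p = 2.04e-06 by edgeR), whereas RBM17, which lies between them, and FBH1, on the far side of IL15RA, did not pass. ANKRD16, further on, did not pass either. Beside IL2RB, C1QTNF6 was higher (0.40, adjusted p = 0.0124), and TMPRSS6 and KCTD17 did not pass. Beside IL2RG, MED12 was lower (−0.50, adjusted p = 0.000667), NLGN3 was higher from a low level (0.59, adjusted p = 0.0303) and FOXO4 did not pass. Beside IL2, BBS12, 276 kb away, was higher (0.51, adjusted p = 0.00222), and BLTP1, BBS7 and FGF2 did not pass. In KO NK cells, Foxo4, 3.5 kb from Il2rg, was higher (0.34, adjusted p = 0.0462) and Kctd17, near Il2rb, was lower (−0.61, adjusted p = 0.0485). Rbm17, Ankrd16, Itga8, Tmprss6, C1qtnf6, Gm614 and Med12 did not pass.

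Over the 6 mouse libraries, the genes whose log2 CPM followed Il2rb most closely among 9132 genes were Eya1, Fyn and Sirt6, with Pearson's r of 0.999, 0.998 and 0.997. Il15ra followed it with 0.95, Il2rg with 0.91 and Il2ra with 0.44. Closest to Il2ra were Sepsecs, Rpn1 and Ap4s1 (0.986, 0.981 and 0.979). In the line, GINM1, FCRL4 and CSNK1G3 were nearest to IL2RA among 8556 genes (each 0.999), and IL2RB followed it with −0.92. For IL2 the nearest were TMEM69, HROB and GMNN (0.984, 0.982 and 0.975). With 6 points that fall into 2 groups and share library depth, such values are descriptions only.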

How the data were processed

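RNA-seq (polyA RNA) was measured in 12 libraries. The authors trimmed reads with fastp 0.23.4, mapped mouse reads to GRCm38/mm10 and human reads to GRCh38/hg38 using STAR 2.7.11b with at most 2 mismatches, and obtained gene counts from HTSeq 2.0.3. The deposited values are raw counts per gene symbol. Annotation release, strand setting and counting mode are not given in the sources used here. Positions and lengths come from GENCODE M21 and 44.

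Samples were grouped by title. The numbers of the human control columns have no link to the numbered DMSO samples. Each species was fitted separately with edgeR 4.0.16 (R 4.3.3): TMM, filterByExpr, quasi-likelihood test, Benjamini-Hochberg adjustment over all genes tested, standard errors from the F statistic. The procedure was tested on simulated data. Ratios of chains were compared by exact permutation (scipy). DESeq2 1.42.0, limma-voom (limma 3.58.1), other scalings and filters, a replicate block and leaving out each library were alternatives. Counts per 1000 NK marker counts, and lists without WT replicate 2, were added after seeing the data. At these depths counting error is small except for genes with few reads, such as mouse Il2.

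Members, lists and tests were chosen with earlier results of these data known. Named genes are all members, the other ligands and receptors of the common gamma chain, at most 5 genes passing for each list, species and direction by smallest adjusted p, the 2 nearest protein-coding neighbours on each side, and the 3 genes closest in pattern over libraries among those with a mean CPM of at least 10. Jak1, Stat5a, Stat5b, STAT5A, JAK3 and some markers were named after their values were seen.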

Additional observations from a re-analysis of the deposited data

How the results depend on the processing

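IL2RA and IL2RG kept direction and call under all 6 other settings and with each library left out. Leaving out each library in turn, log2 fold changes ranged from 0.25 to 0.36 for IL15RA, from −0.20 to −0.13 for IL2RB, from −0.0040 (without CON-2) to 0.14 for IL2, from 0.58 to 1.11 for Il2rb, from 0.47 to 0.97 (without WT replicate 1) for Il2ra, from 0.39 to 0.59 for Il2rg and from 0.27 to 0.45 for Il15ra, and the difference in the log2 ratio of Il2ra to Il2rb from −0.55 to 0.33. IL15RA was at 0.29 by DESeq2 and IL2RB at −0.16 both with DESeq2's size factors in edgeR and with no filter, none of which passed. By DESeq2, Il2rb passed at 0.73.

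Scaled to the NK marker list, Il2ra, Il2rb, Il2rg and Il15ra were at −0.26, −0.0062, −0.32 and −0.45, and the median of all genes tested was at −0.81. The mouse genes passing numbered 1565 by edgeR, 3092 by DESeq2, 8897 with NK marker scaling and 0 at the stricter thresholds (4719 had an unadjusted p under 0.05, and DESeq2 called 1499 at these thresholds). With 1 library left out they numbered from 0 (without KO replicate 2 or KO replicate 3) to 3530 (without WT replicate 2). In human, 1485 of 4692 met the stricter thresholds. At those thresholds, 0 mouse genes of the lists of signal carriers, brakes and response genes passed, against 1, 1 and 8 in human. By DESeq2, 5 mouse brakes and 7 mouse response genes passed.

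With the replicate number as a block (replicate block), 3222 mouse genes passed, and Il2rb passed at 0.78. Deviations of same-numbered libraries correlated at 0.28, 0.35 and −0.19, KO replicate 1 correlated as well with WT replicate 3 (0.28), and nothing in the labels ties the numbers, so they were not taken as pairs. No block was run in human, where nothing links the control columns' numbers to those of the samples. Reads limit mouse Il2, with 10 to 28 a library. The cause of the other changes was not tested.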
